A study of Mus musculus with 15 samples.

Results

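Macrophages that take up large amounts of lipid or debris express a shared set of genes. In the brain these cells are called disease-associated microglia, and in fat and arterial plaque they are called lipid-associated or foamy macrophages. A set of 10 genes of this programme is described here, namely *Lpl*, *Cst7*, *Spp1*, *Gpnmb*, *Cd9*, *Clec7a*, *Itgax*, *Lgals3*, *Igf1* and *Fabp5*. They were taken by gene symbol from 54390 genes in each count table, and all 10 were present and passed the filter on low counts that left 14237 genes for testing.

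RNA was sequenced from 15 libraries of BV2, an immortalised mouse microglial line. WT cells (labelled Trem2WT) gave 4 non-foamy libraries, grown in media alone, and 4 foamy libraries, grown overnight with soluble cholesterol at 20 µg/ml. Trem2-/- cells (labelled Trem2KO) gave 3 non-foamy and 4 foamy libraries under the same pair of conditions. Per the methods, the soluble cholesterol was made with methyl-beta-cyclodextrin, and no group received this carrier alone. Effects of the carrier and of cholesterol therefore cannot be told apart, and a response to cholesterol below means a response to both. For the Trem2-/- line, BV2 cells of a single Cas9-expressing clone were transfected with a guide RNA to *Trem2*, and individual clones were then isolated by limiting dilution. A property of the isolated clone and the loss of *Trem2* therefore cannot be told apart. Whether the WT cells also carried Cas9 is not given in the sources used here. The labels do not say whether the replicates of a group were separate cultures, and p-values then measure the spread between these samples only.

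In microglia, Trem2 is a surface receptor for lipids and lipoproteins, and the full disease-associated programme in the brain is known to depend on it. The markers act at different places. Clec7a, Itgax, Cd9 and Gpnmb sit in membranes of the cell surface or the endolysosome, Lpl and Fabp5 handle fatty acids outside and inside the cell, and Spp1, Lgals3, Igf1 and Cst7 are secreted or reach the lysosome.

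The libraries held 23538963 to 41683825 counted reads. *Trem2* was still counted in the Trem2-/- libraries, with at least 5941 reads in each. On the scale of CPM, reads per library scaled to a common total after TMM correction for composition, its level was 327 to 415 CPM in WT non-foamy and 214 to 232 CPM in Trem2-/- non-foamy libraries, a log2 fold change of −0.67 with a standard error of 0.078 (edgeR adjusted p = 2.84e-07), and the log2 fold change with cholesterol was −0.73. Read counts on the gene do not show whether the transcript could make protein. The study itself checked the Trem2-/- clones by flow cytometry and reported knockout of Trem2 protein after cholesterol treatment. All 10 macrophage and microglia markers examined (*Ptprc*, *Itgam*, *Csf1r*, *Aif1*, *Cd68*, *Adgre1*, *Fcgr1*, *Tyrobp*, *Spi1* and *Lyz2*) were expressed, and their summed level was 6269 to 8043 CPM in WT and 10450 to 11491 CPM in Trem2-/- libraries. Of them, 7 were higher and 1 lower in Trem2-/- cells without cholesterol, where 21.0% and 22.6% of all tested genes were called higher and lower. With cholesterol 7 were higher, against 14.3% of all tested genes. Markers of neurons, astrocytes, oligodendrocytes, fibroblasts and endothelium, and T and B cells summed to at most 2.57 CPM per list in any library. Of these 25 genes 3 passed the filter, and *Slc1a2* was called higher (2.28 ± 0.69 log2 units ± standard error) and *Mbp* lower (−1.88 ± 0.58) in Trem2-/- cells without cholesterol. Genes that define resting microglia in the brain were nearly absent: *Sall1* had no read, *Siglech* had at most 2 reads and *Tmem119* at most 26 reads per library.

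All 10 markers were well measured, with at least 1077 reads per library, and together they took 1.87% to 2.25% of all counts. Genes were compared on a scale of CPM per kilobase of annotated exon. The length merges the exons of all annotated transcripts of a gene, for example 10.5 kilobases for *Lpl* and 3.57 kilobases for *Fabp5*. Which transcripts the cells made was not determined, so the order of members depends on these lengths. On this scale *Spp1* was the highest member in every group. Its mean was 4102 in WT non-foamy cells, where it ranked 6th among 14229 genes with a length. *Lgals3* followed with 1511, *Gpnmb* with 589 and *Fabp5* with 503 CPM per kilobase. *Lpl*, *Cd9*, *Cst7* and *Clec7a* had intermediate means of 208, 176, 128 and 50.5, and *Igf1* (15.2) and *Itgax* (11.9) were lowest. The order was the same in WT foamy cells. In both Trem2-/- groups *Cd9* stood above *Lpl*. Most neighbours in the order had library ranges that did not overlap, except *Gpnmb* and *Fabp5* in WT non-foamy, *Igf1* and *Itgax* in WT foamy and Trem2-/- non-foamy, and *Lpl* and *Cst7* in both Trem2-/- groups. The level of *Spp1* rests on a gene model with 18.8% of its exonic bases shared with *Gm42793* on the same strand.

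The first question was how the markers differed between Trem2-/- and WT cells. Without cholesterol, 7 of 10 differed (adjusted p under 0.05, edgeR quasi-likelihood test with all 15 libraries): *Gpnmb*, *Itgax*, *Clec7a*, *Lgals3*, *Igf1* and *Cd9* were higher in Trem2-/- cells and *Lpl* was lower. With cholesterol, 9 of 10 differed, since *Fabp5* and *Cst7* were also called higher, and *Spp1* was the member not called in either condition. Differences between these lines were common over all genes. Without cholesterol, 21.0% of tested genes were called higher and 22.6% lower, against 6 and 1 of the 10 members, and with cholesterol 14.3% were called higher and 15.9% lower, against 8 and 1. The median log2 fold change of the members was 0.47 without and 0.28 with cholesterol, beside 0.017 and 0.00033 for all tested genes. Library values of WT and Trem2-/- cells were fully separate for 7 members without cholesterol and 8 with it, where 46.1% and 28.8% of all tested genes did not overlap. Without WT non-foamy replicate 3, the shallowest library, 8 members were called higher and 1 lower in the absence of cholesterol. In its presence *Lpl* stayed the member called lower, and those called higher numbered 6 without WT foamy replicate 1, 6 without WT foamy replicate 2, 7 without Trem2-/- foamy replicate 1, 6 without Trem2-/- foamy replicate 4 and 4 when libraries were scaled by total counts alone. The summed macrophage markers above moved with genotype in the same direction as most members, and their part in these differences was not tested. In bulk RNA, a change in the share of expressing cells and a change in RNA per cell cannot be told apart.

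**Figure D1:**
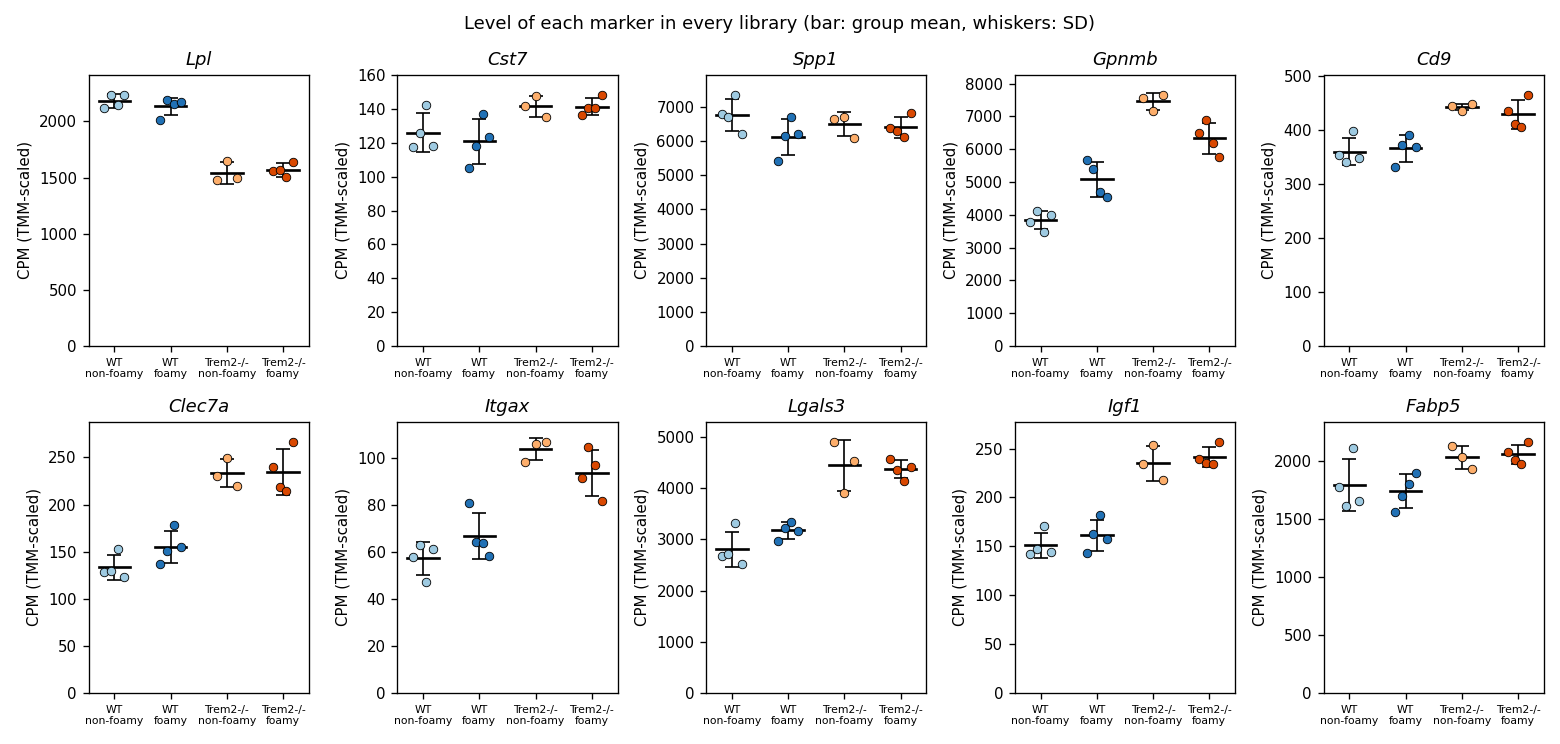
TMM-scaled CPM (vertical axes starting at 0) of each of the 10 markers in each of the 15 libraries, by group. Points are libraries, horizontal bars are group means and whiskers are SD. *Gpnmb*, *Clec7a*, *Itgax*, *Lgals3* and *Igf1* lay higher and *Lpl* lay lower in every Trem2-/- library than in every WT library of the same treatment, while *Spp1* overlapped.

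Among the membrane proteins, and among all members, *Gpnmb* had the largest difference without cholesterol. It encodes a transmembrane glycoprotein of lysosomes and melanosomes that rises in lipid-laden macrophages, and its gene spans chr6:49036546-49070929, plus strand (GRCm38), with 13 merged exons. *Gpnmb* was at 3766, 4102, 3489.5 and 3989 CPM in the 4 WT non-foamy libraries and at 7549.6, 7163 and 7653 CPM in the 3 Trem2-/- non-foamy libraries. It was at 5668, 5388, 4705 and 4542 CPM in WT foamy and 6500.3, 6881, 6184 and 5751 CPM in Trem2-/- foamy libraries. The Trem2-/- libraries were higher under both conditions, without overlap, but the gap was wide without cholesterol and narrow with it. The ratio was 1.94-fold without cholesterol (log2 fold change 0.96, standard error 0.085, adjusted p = 5.92e-09) and 1.25-fold with it (log2 fold change 0.32, standard error 0.080, adjusted p = 0.00388). When libraries were scaled by total counts alone, the log2 fold change with cholesterol was 0.19 and no longer passed (adjusted p = 0.141).

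*Clec7a* encodes dectin-1, a C-type lectin receptor for fungal beta-glucans that marks disease-associated microglia (chr6:129461591-129472779, minus strand). The annotation used here lists it as a polymorphic pseudogene. Its level was 128, 129, 153 and 123 CPM in WT non-foamy and 230.5, 249.9 and 219.9 CPM in Trem2-/- non-foamy libraries. With cholesterol it was 137, 150.4, 178 and 155 CPM in WT and 239, 218, 214 and 267 CPM in Trem2-/- libraries. Every Trem2-/- library was above every WT library, by 1.75-fold on average in untreated cells (log2 fold change 0.81, standard error 0.091, adjusted p = 1.76e-07) and by 1.51-fold in foamy cells (log2 fold change 0.60, standard error 0.085, adjusted p = 1.20e-05).

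*Itgax* encodes CD11c, the alpha chain of an integrin that pairs with the beta-2 chain (chr7:128129547-128150657, plus strand). It was the least abundant marker per length. Its level was 57.9, 62.8, 47.4 and 61.2 CPM in WT non-foamy and 98.5, 106 and 107 CPM in Trem2-/- non-foamy libraries. In foamy cells the levels were 80.7, 64.1, 63.9 and 58.4 CPM in WT and 91.6, 105, 97.2 and 81.5 CPM in Trem2-/- libraries. The groups did not overlap in either condition, although the highest WT foamy library (80.7 CPM) came close to the lowest Trem2-/- foamy library (81.5 CPM). The ratio was 1.81-fold in untreated cells (log2 fold change 0.85, standard error 0.10, adjusted p = 4.35e-07) and 1.40-fold in foamy cells (log2 fold change 0.49, standard error 0.095, adjusted p = 4.01e-04). Of the 50-base stretches of its transcripts, 8.02% also occur in *Itgad*, a neighbouring integrin gene.

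*Cd9* encodes a tetraspanin, a small membrane protein that organises other surface proteins (chr6:125460266-125494791, minus strand). It ranged from 342 to 398 CPM in WT non-foamy and 332 to 392 CPM in WT foamy libraries to 436 to 449 and 405 to 466 CPM in the matching Trem2-/- libraries. It was modestly higher in all Trem2-/- libraries, by 1.23-fold without cholesterol (adjusted p = 0.00132) and 1.17-fold with it (adjusted p = 0.00954). The call with cholesterol was lost under total counts alone (log2 fold change 0.10, adjusted p = 0.0698). *Gm26728*, on the opposite strand, overlaps 10.7% of its exonic bases, and how the counting treated strand is not given in the sources used here.

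Of the lipid-handling members, *Lpl* was lower in Trem2-/- cells under both conditions, and *Fabp5* was called only with cholesterol. *Lpl* encodes lipoprotein lipase, the secreted enzyme that releases fatty acids from triglycerides in lipoproteins (chr8:68880491-68907448, plus strand). Its level was 2117, 2236, 2149 and 2234 CPM in WT non-foamy and 1477, 1651 and 1497 CPM in Trem2-/- non-foamy libraries. With cholesterol it was 2016, 2187, 2159.5 and 2172 CPM in WT and 1555, 1572, 1502 and 1642 CPM in Trem2-/- libraries. All 7 Trem2-/- libraries were below all 8 WT libraries. *Lpl* was the only marker called lower, by 1.42-fold without cholesterol (log2 fold change −0.50, standard error 0.065, adjusted p = 1.42e-06) and 1.36-fold with it (log2 fold change −0.44, standard error 0.060, adjusted p = 6.06e-06).

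*Fabp5* encodes a fatty acid binding protein of the cytosol (chr3:10012548-10016607, plus strand), and 5.48% of its 50-base stretches occur in other genes, among them the *Fabp5*-like *Fabp5l2*. It was at 1777, 1616, 2116 and 1659.9 CPM in WT non-foamy and 2129.6, 2037 and 1933 CPM in Trem2-/- non-foamy libraries. With cholesterol the ranges were 1562 to 1900.2 CPM in WT and 1978 to 2168 CPM in Trem2-/- libraries. The groups overlapped without cholesterol through WT replicate 3 and did not overlap with it. The log2 fold change was 0.18 (adjusted p = 0.0897, not called) without cholesterol and 0.24 (adjusted p = 0.0242) with it. Without WT non-foamy replicate 3, the first value was 0.27 and was called (adjusted p = 0.00265). The second call was lost with total counts alone (log2 fold change 0.11) and without WT foamy replicate 1 (0.19) or 2 (0.23) or Trem2-/- foamy replicate 1 (0.24) or 4 (0.22).

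Among secreted and lysosomal proteins, *Lgals3* encodes galectin-3, a galactose-binding lectin that marks damaged lysosomes and activated macrophages (chr14:47367751-47386160, plus strand). Its level was 2683, 2708, 3316 and 2521 CPM in WT non-foamy and 4913, 3916 and 4527 CPM in Trem2-/- non-foamy libraries. With cholesterol it was 2966, 3226, 3347 and 3174 CPM in WT and 4581, 4366, 4145 and 4417 CPM in Trem2-/- libraries. No WT library reached the Trem2-/- range, and the folds were 1.59 (log2 0.67, standard error 0.089, adjusted p = 2.04e-06) and 1.38 (log2 0.46, standard error 0.083, adjusted p = 1.78e-04).

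*Igf1* encodes insulin-like growth factor 1, a growth factor that microglia and macrophages release (chr10:87858265-87937042, plus strand). It was at 142, 147, 170.4 and 145 CPM in WT non-foamy and 234, 253 and 218 CPM in Trem2-/- non-foamy libraries. With cholesterol it was at 143, 163, 182 and 157 CPM in WT and 239, 235, 234 and 257 CPM in Trem2-/- libraries. *Igf1* was higher in every Trem2-/- library, and it differed by 1.56-fold and 1.50-fold in untreated (log2 fold change 0.64, standard error 0.079, adjusted p = 7.34e-07) and foamy cells (log2 fold change 0.58, standard error 0.074, adjusted p = 3.02e-06). The interval of the change between these values was −0.28 to 0.17.

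*Cst7* encodes cystatin F, an inhibitor of lysosomal cathepsins (chr2:150570415-150578944, plus strand). It ranged over 117 to 142 CPM in WT non-foamy and 135 to 148 CPM in Trem2-/- non-foamy libraries, with overlap (log2 fold change 0.17, adjusted p = 0.0913). With cholesterol it was at 105, 118, 137 and 123 CPM in WT and 136, 141, 141 and 148 CPM in Trem2-/- libraries, which overlapped through WT replicate 3. The difference with cholesterol was called (log2 fold change 0.23, standard error 0.074, adjusted p = 0.0239). That call was lost with total counts alone (log2 fold change 0.10), after removal of library trends on gene length and GC content (0.11), and without WT foamy replicate 1 (0.16) or 2 (0.22) or Trem2-/- foamy replicate 4 (0.20). *Cst7* was called higher without cholesterol when WT non-foamy replicate 3 was left out (log2 fold change 0.23, adjusted p = 0.0142).

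*Spp1* encodes osteopontin, a secreted phosphoprotein that binds integrins and CD44 (chr5:104435118-104441050, plus strand). It was at 6787, 6696, 7351 and 6209.5 CPM in WT non-foamy and 6656, 6718 and 6083 CPM in Trem2-/- non-foamy libraries. In foamy cells it was at 5405, 6145, 6698 and 6218 CPM in WT and 6376, 6301, 6113 and 6824 CPM in Trem2-/- libraries. All 4 groups overlapped. The fitted intervals were −0.23 to 0.11 log2 units without cholesterol and −0.088 to 0.22 with it, and the sign of the second value turned under total counts alone (−0.060) and when library trends were removed (−0.030). Under total counts alone the first value was called lower (−0.20).

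**Figure D2:**
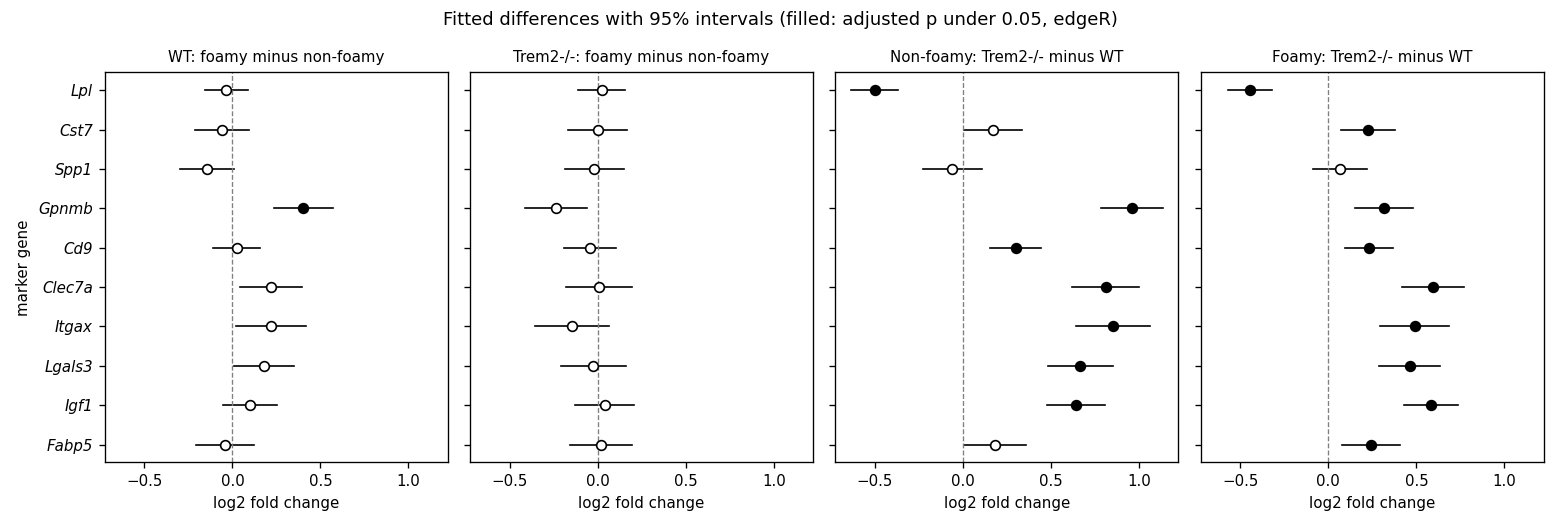
Fitted log2 fold changes (horizontal axes) of the 10 markers (rows) in 4 comparisons, with 95% intervals as lines. Filled points passed an adjusted p of 0.05 in edgeR. *Gpnmb* is the only filled point in the panel of the WT response, no point is filled in the panel of the Trem2-/- response, and 7 and 9 points are filled in the panels of genotype.

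The promoters of the markers were read for short motifs, as most members differed between genotypes in 1 direction. RefSeq start sites on GRCm38.p6 were matched for 8 members (not *Lpl* or *Fabp5*), with windows from 250 bases before to 50 bases after each start, which is not always the outermost start of the gene's span. The AP-1 motif TGANTCA, which reads the same on both strands, was found in 4 of the 8 (*Cst7*, *Gpnmb*, *Itgax* and *Igf1*), and 8.97% of 27025 genes hold it in a window. Each match is shown with 10 bases on either side, 5′ to 3′ in the gene's direction and with the motif in capitals, so that its variants can be compared. All 4 genes are on the plus strand.
Cst7, chr2:150570399-150570425: ctggttaaaaTGATTCAgcaagaaacc
Gpnmb, chr6:49036516-49036542: caggggcaagTGACTCAtgagcacgag
Itgax, chr7:128129484-128129510: ccacctcctcTGAGTCAcgctgacaac
Igf1, chr10:87861064-87861090: agctggaactTGAATCActattctgga
The matches differ in the free base at the centre of the motif. Of the 4 genes, *Gpnmb*, *Itgax* and *Igf1* were higher in Trem2-/- cells under both conditions, but so were *Clec7a*, *Lgals3* and *Cd9*, whose windows held no match. The PU.1 motif GAGGAAGT, read on both strands, was found in *Spp1* only, and 3.69% of genes hold it. The E-box CACGTG and the longer TCACGTGA that contains it were in no window of a member, where 8.09% and 1.13% of genes hold them. A match is a description of letters, and binding was not measured.

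The 250 bases before the start of *Gpnmb* and *Itgax* are given in full, since these were the members with the largest differences between genotypes without cholesterol and in the responses. They were chosen after the values were seen. Capitals mark a motif match.
Gpnmb, chr6:49036268-49036517, plus strand: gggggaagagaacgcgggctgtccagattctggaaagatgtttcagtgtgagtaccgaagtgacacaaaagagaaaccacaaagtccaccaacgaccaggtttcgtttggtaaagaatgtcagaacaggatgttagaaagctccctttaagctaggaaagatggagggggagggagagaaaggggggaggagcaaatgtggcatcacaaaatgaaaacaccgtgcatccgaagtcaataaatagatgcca
Itgax, chr7:128129300-128129549, plus strand: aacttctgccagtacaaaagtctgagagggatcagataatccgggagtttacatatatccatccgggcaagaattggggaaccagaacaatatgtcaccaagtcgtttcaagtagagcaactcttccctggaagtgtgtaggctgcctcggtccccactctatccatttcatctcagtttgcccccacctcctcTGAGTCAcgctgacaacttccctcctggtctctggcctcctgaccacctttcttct
The TGACTCA of *Gpnmb* begins at base 9 counted from the RefSeq start and so lies outside this stretch. That start lies upstream of the gene span printed above, which comes from GENCODE, and by the GENCODE span the motif lies before the gene. In *Itgax* the TGAGTCA begins 56 bases before the RefSeq start.

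Scaling mattered for the comparisons of genotype, since the TMM factors were 0.966 to 1.11 in WT and 0.918 to 0.983 in Trem2-/- libraries. Under total counts alone the median log2 fold change of all tested genes was −0.13 without and −0.13 with cholesterol, and the share of calls that were higher in Trem2-/- cells was 29.4% and 23.3%, against 48.1% and 47.4% with TMM. *Clec7a*, *Itgax*, *Lgals3* and *Igf1* stayed called higher and *Lpl* lower in both conditions under total counts alone.

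The next question was how the markers responded to cholesterol. In WT cells 1 of 10 members changed: *Gpnmb* rose 1.32-fold (log2 fold change 0.40, standard error 0.080, adjusted p = 0.00610), from 3837 ± 270.4 to 5076 ± 539 CPM (mean ± SD, n = 4 each). Over all tested genes, 1.66% were called higher and 1.14% lower. The WT foamy libraries of *Gpnmb* lay above the WT non-foamy libraries without overlap, and 9.71% of tested genes had no overlap in one direction or the other. The median log2 fold change was 0.061 for the members and 0.0053 for all tested genes. With the spread estimated from the 8 WT libraries alone, the *Gpnmb* call was lost at nearly the same size (log2 fold change 0.41, adjusted p = 0.0536), and 0 members were then called in edgeR, with 2 at an unadjusted p under 0.05. Under total counts alone 41.8% of the calls over all genes were higher, and 36.5% with library trends removed, against 59.4%.

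Of the other members, *Clec7a* (0.22, standard error 0.085, adjusted p = 0.176), *Itgax* (0.22, standard error 0.095, adjusted p = 0.246) and *Lgals3* (0.18, standard error 0.083, adjusted p = 0.274) had positive log2 fold changes in WT cells that did not pass. Without WT non-foamy replicate 3, the shallowest library, *Clec7a* (0.29) and *Lgals3* (0.27) were called. *Clec7a* was also called when library trends were removed (0.21, adjusted p = 0.0292). *Spp1* had a value of −0.14 with an interval of −0.30 to 0.0094. *Lpl*, *Cst7*, *Cd9*, *Igf1* and *Fabp5* lay between −0.057 and 0.098.

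In Trem2-/- cells no member was called in edgeR or in DESeq2, and 1 of 10, *Gpnmb*, had an unadjusted p under 0.05 with each tool. Over all tested genes, 0.105% were called higher and 0.0351% lower, and with library trends removed 61.8% of all calls were higher, against 75%. *Gpnmb* was 7455 ± 258 CPM (n = 3) without and 6329 ± 479 CPM (n = 4) with cholesterol, a log2 difference of −0.24 with a standard error of 0.086 (adjusted p = 0.654). Its Trem2-/- foamy libraries were all below its Trem2-/- non-foamy libraries, and 9.26% of tested genes did not overlap in this comparison. *Itgax* had a value of −0.15 (interval −0.36 to 0.065). The other 8 members lay between −0.044 and 0.039 log2 units, and the median absolute value over the members was 0.024, beside 0.096 for all tested genes.

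The responses were then compared directly by the interaction of genotype and cholesterol. *Gpnmb* differed, with a difference between responses of −0.64 log2 units (Trem2-/- minus WT, standard error 0.12, adjusted p = 0.00312). It was the only member called, against 1.99% of tested genes called higher and 1.64% lower. The same number states that the difference between genotypes in *Gpnmb* was smaller with cholesterol (0.32) than without it (0.96). The call held in all 22 alternatives, with values from −0.69 to −0.58. *Itgax* came next with −0.36 (interval −0.65 to −0.075, adjusted p = 0.159), and it was called with no filter on low counts (−0.37, adjusted p = 0.0284). For *Clec7a* (−0.21) and *Lgals3* (−0.20) the intervals were −0.47 to 0.044 and −0.46 to 0.048, and for the other 6 members the estimates lay between −0.068 and 0.13. Under total counts alone 70.3% of the calls over all genes were higher, against 54.8% with TMM.

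**Figure D3:**
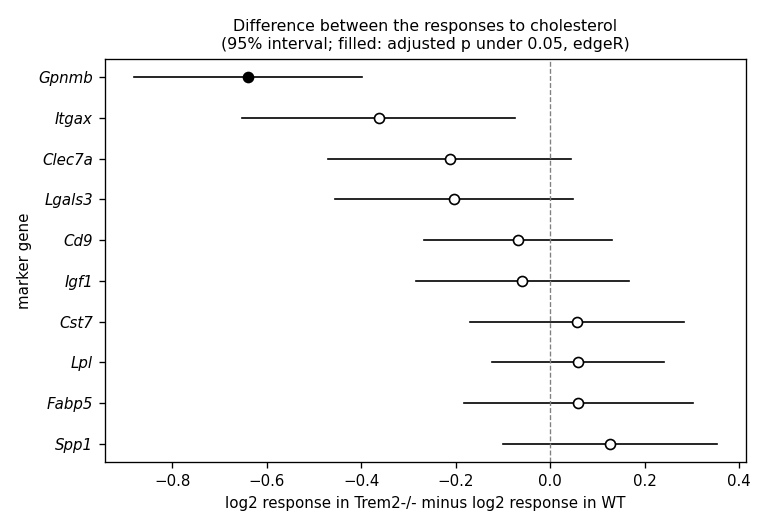
Difference between the log2 responses to cholesterol of Trem2-/- and WT cells (horizontal axis) for each marker (rows, ordered by value), with 95% intervals. The filled point passed an adjusted p of 0.05 in edgeR. *Gpnmb* sits at −0.64, and the intervals of *Gpnmb* and *Itgax* lie below 0.

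Replicates of a group also differed among themselves. Deviations from the group means over the 15 libraries were set side by side. *Gpnmb* and *Itgax* deviated together (Pearson's r = 0.84). *Cst7*, *Spp1*, *Cd9*, *Clec7a*, *Igf1* and *Fabp5* also deviated together (r = 0.71 to 0.93 over 15 pairs) and opposite to both (−0.81 to −0.67 with *Gpnmb* and −0.92 to −0.68 with *Itgax*). These pairs were grouped after their values were seen, and all points share library and depth. The pattern was seen in WT non-foamy replicate 3, WT foamy replicates 1 and 3 and Trem2-/- foamy replicate 4, among others. Levels of all tested genes also deviated with gene properties, in these and in other libraries. Spearman's rho over genes between deviation and exonic length was −0.34 in WT non-foamy replicate 3, 0.30 in WT foamy replicate 1, −0.23 in WT foamy replicate 3 and −0.11 in Trem2-/- foamy replicate 4, and rho with GC content was −0.087, 0.20, −0.24 and −0.45 in the same libraries. The length rho was 0.28 in WT non-foamy replicate 4. The GC rho was 0.32 in Trem2-/- non-foamy replicate 3 and Trem2-/- foamy replicate 2. *Gpnmb* and *Itgax* lay above their group means there, by 0.059 and 0.10, 0.038 and 0.044, and 0.12 and 0.17 log2 units in that order. The 6 lay below theirs, except *Cd9* in Trem2-/- non-foamy replicate 3 (0.018). The part of these trends in the pattern was not tested beyond their removal. After both trends were removed, an alternative chosen after seeing the data, r between *Gpnmb* and *Itgax* was 0.58, r among the 6 was 0.38 to 0.91, and r of the 6 was −0.52 to 0.096 with *Gpnmb* and −0.88 to −0.25 with *Itgax*. For the tests, the removed trends were fitted to deviations from the mean over all 15 libraries. They therefore also take out length and GC trends that differ between groups. With the trends removed, members called higher in Trem2-/- cells numbered 6 without and 7 with cholesterol, and *Lpl* was called lower in both.

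**Figure D4:**
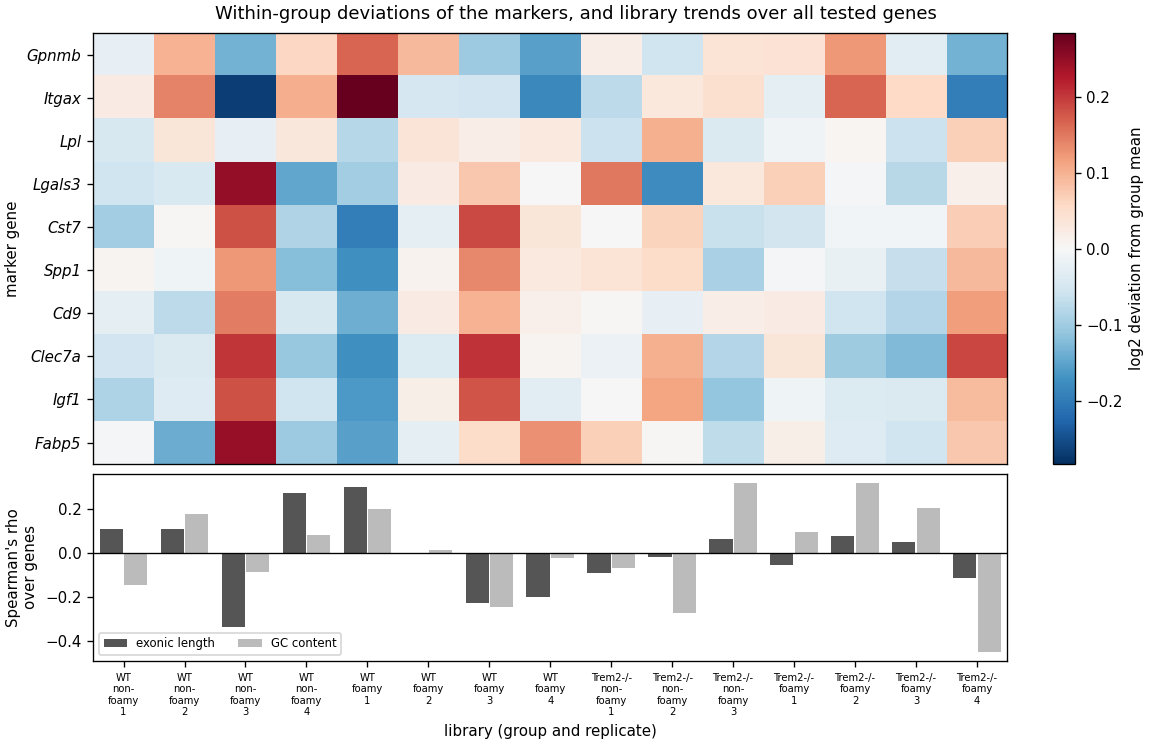
Upper panel, log2 deviation of each marker (rows) from its group mean in each library (columns), in colour. Lower panel, Spearman's rho across all tested genes between a library's deviation and exonic length (dark bars) or GC content (light bars). Red in the rows of *Gpnmb* and *Itgax* meets blue in the 6 bottom rows in WT foamy replicate 1, and the reverse holds in WT non-foamy replicate 3.

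The genes whose levels followed each marker most closely over the 15 libraries were found by Pearson's r of log2 CPM, out of 11708 other genes that averaged 1 CPM or more. For *Gpnmb* they were *Dnmt3a* (r = 0.995), a DNA methyltransferase, and *Myof* (0.990). For *Clec7a* they were *Lamp2* (0.994), a lysosomal membrane protein, and *Serpinb6a* (0.991). For *Igf1* they were *Asah1* (0.990), the lysosomal acid ceramidase, and *Ugt1a7c* (0.989). *Itgax* was closest to *Ube2h* (0.981) and *Prkcd* (0.979), *Lgals3* to *Tst* (0.982) and *Galk2* (0.973), and *Cd9* to *Tbc1d15* (0.984) and *Kxd1* (0.980). *Lpl* was closest to *Atad2* (0.982) and *Spcs3* (0.982), *Cst7* to *Zfp972* (0.977) and *Tmem60* (0.959), and *Fabp5* to *Ndufb5* (0.975) and *Rpl34* (0.974). *Spp1* had the lowest best values, with *Nudt21* (0.932) and *Pigx* (0.928). These libraries share group and library effects, and the values are descriptions.

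Other genes of the same programme were read from 2 further lists. Values in parentheses after a gene are log2 fold changes ± standard error of genes that were called. Of 24 other genes of disease-associated microglia, 22 were tested. Without cholesterol, Trem2-/- cells had 16 at a higher and 3 at a lower level than WT cells (median log2 fold change 0.43), beside 21.0% and 22.6% of all tested genes (median 0.017). With cholesterol they had 14 and 4 (median 0.32), beside 14.3% and 15.9% of all tested genes (median 0.00033). The largest increases without cholesterol were *Timp2* (1.34 ± 0.073), a protease inhibitor, *Apoe* (1.22 ± 0.073), the lipid-carrying apolipoprotein E, and *Npc2* (0.89 ± 0.078), a lysosomal cholesterol carrier. *Trem2* itself, *Hif1a* (−0.57 ± 0.069) and *Ccl6* (−0.51 ± 0.092) were lower. In foamy cells *Axl* (−2.44 ± 0.84, edgeR adjusted p = 0.0311), a receptor tyrosine kinase for apoptotic cells, was lower. Its standard error was far above that of *Hif1a* in the same comparison (0.063), so the size of its difference is poorly known. In WT cells, where 1.66% of all tested genes were called higher, cholesterol raised 3 of the 22, *Timp2* (0.37 ± 0.069), *Apoe* (0.31 ± 0.068) and *Ctsb* (0.27 ± 0.060), and in Trem2-/- cells, against 0.105% of all tested genes, it raised 1, *Ccl6* (0.47 ± 0.092). The responses of *Timp2* (−0.51 ± 0.10), *Apoe* (−0.45 ± 0.10) and *Ctsb* (−0.38 ± 0.088) differed between genotypes in the same direction as that of *Gpnmb*. In that comparison 1.64% of all tested genes were called lower.

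All 14 other genes of lipid-associated macrophages and foam cells were tested. Without cholesterol 11 were higher and 1 lower in Trem2-/- cells (median 0.77), beside 21.0% and 22.6% of all tested genes. With it 10 were higher and 1 lower (median 0.58), beside 14.3% and 15.9%. *Acp5* (2.62 ± 0.14), a lysosomal acid phosphatase, *Atp6v0d2* (1.83 ± 0.089), a proton pump subunit, and *Fabp4* (1.73 ± 0.090), a fatty acid binding protein, led the increases without cholesterol, and *Mmp12* (−1.76 ± 0.12), macrophage elastase, was lower. Cholesterol raised 4 in WT cells, beside 1.66% of all tested genes, led by the sterol exporters *Abca1* (0.82 ± 0.095) and *Abcg1* (0.76 ± 0.098) and by *Atp6v0d2* (0.51 ± 0.083). In Trem2-/- cells it raised *Cd36* (0.67 ± 0.10), a scavenger receptor, and *Plin2* (0.58 ± 0.073), a lipid droplet coat protein, and lowered *Abca1* (−0.49 ± 0.10). There 0.105% of all tested genes were called higher and 0.0351% lower. The responses of 2 genes were more positive in Trem2-/- cells (*Cd36*, 0.99 ± 0.14, and *Plin2*, 0.63 ± 0.099) and those of 4 were more negative, led by *Abca1* (−1.31 ± 0.14), *Abcg1* (−1.19 ± 0.14) and *Atp6v0d2* (−0.73 ± 0.12). In this comparison of responses 1.99% of all tested genes were called higher and 1.64% lower.

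Of 16 transcription factors tied to the programme, all tested, 8 were higher in Trem2-/- cells without cholesterol (median 0.35) and none was lower in edgeR at an adjusted or unadjusted p under 0.05 or in DESeq2, beside 21.0% and 22.6% of all tested genes. They were led by *Bhlhe40* (0.82 ± 0.068), *Tfeb* (0.81 ± 0.098), a regulator of lysosomal genes, and *Bhlhe41* (0.79 ± 0.071). With cholesterol 6 were higher, led by *Tfeb* (0.40 ± 0.091), *Bhlhe40* (0.37 ± 0.063) and *Maf* (0.34 ± 0.057), and *Tfe3* (−0.23 ± 0.080) was lower (median 0.041), beside 14.3% and 15.9% of all tested genes. In the WT response *Bhlhe41* rose (0.28 ± 0.066), beside 1.66% of all tested genes called higher. There 9 of the 16 were higher at an unadjusted p under 0.05 in edgeR, and 4 were called higher in DESeq2. In the Trem2-/- response 0 were called in edgeR, 2 had an unadjusted p under 0.05 and 1 was called lower in DESeq2. The responses of *Bhlhe41* (−0.56 ± 0.097) and *Bhlhe40* (−0.46 ± 0.093) differed between genotypes, beside 1.64% of all tested genes called lower in this comparison. In it 10 of the 16 were lower at an unadjusted p under 0.05 in edgeR, and 2 were called lower in DESeq2. The shares of all genes at an unadjusted p under 0.05 are not given here.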

How the data were processed

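RNA from 15 libraries of BV2 cells was measured in 4 groups taken from the labels. The authors deposited 1 table per library of raw read counts on 54390 genes, without normalization. Per the methods they used Trimmomatic for trimming, HISAT2 for alignment (GRCm38) and featureCounts for counting. The handling of strand and of reads with several matches is not given in the sources used here, so overlapping genes cannot be separated. The members and lists were chosen with earlier results of these data known.

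Counts were filtered with filterByExpr (minimum count 10), scaled with TMM and fitted in 1 model with a mean per group by the quasi-likelihood test of edgeR 4.0.16 in R 4.3.3, and p-values were adjusted by Benjamini-Hochberg over 14237 genes. Replicate pairs differed by more than counting noise (chi-square per gene 5.97 to 45.7). CPM are TMM-scaled counts, and lengths are merged exons of GENCODE M21. Named genes were each member, *Trem2*, up to 3 called genes per list, comparison and direction with the largest change, and the 2 genes most like each member. Single markers named as nearly absent were named after their values were seen, and some genes under this rule are not reported here. Alternatives were DESeq2 1.42.0, RLE factors, total counts alone, 2 other filters, fewer libraries, a factor for the replicate number and leaving out each library in turn. Removal of library trends on exonic length and GC content was added after the data were seen. These trends were fitted to deviations from each gene's mean over all libraries, so trends that differ between groups were removed too. The fitting code was tested on simulated counts.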

Additional observations from a re-analysis of the deposited data

Results flagged for a closer look

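The response of *Gpnmb* to cholesterol differed between genotypes by −0.64 log2 units in the test of the interaction (standard error 0.12, edgeR adjusted p = 0.00312), which marked it for a closer look. Its level was higher in 4 of 4 WT foamy libraries than in any WT non-foamy library and lower in 4 of 4 Trem2-/- foamy libraries than in any Trem2-/- non-foamy library.

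*Lpl* in WT foamy replicate 1 was at 2016 CPM, apart from the other libraries of its group, of which the nearest was at 2159.5 CPM. It was the only case among 30 groups of 4 libraries examined for the members by Dixon's test at the 95% level, and chance marks about 1 in 20 groups.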

How the results depend on the processing

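Of 390 log2 fold changes of members under alternatives other than leaving out a library, 375 kept their direction and their side of the threshold, and of 450 with a library left out 412 did. The cause of the changes was not tested. Members called higher in the WT response numbered 1, but 2 with library trends removed, 0 with only the libraries of the groups compared, and 1 to 3 when a library was left out (3 without WT non-foamy replicate 3). Under total counts alone, 2 members were called lower without cholesterol (*Lpl* and *Spp1*) and 4 higher with it, in place of 1 and 8. With no filter on low counts, 2 members were called lower in the difference of responses in place of 1.

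The sign turned, always at small values, for *Cst7* in the Trem2-/- response under total counts alone (0.0071), *Clec7a* in it with the replicate block (−0.0044) and with trends removed (−0.041), *Fabp5* in it with trends removed (−0.0021), and *Spp1* between genotypes with cholesterol under total counts alone (−0.060) and with trends removed (−0.030). Over left-out libraries, the WT response ranged over −0.017 to 0.075 for *Cd9*, −0.13 to 0.0053 for *Cst7* and −0.088 to 0.048 for *Fabp5*. The Trem2-/- response ranged over −0.0056 to 0.076 for *Lpl*, −0.062 to 0.0073 for *Spp1*, −0.060 to 0.059 for *Clec7a*, −0.11 to 0.053 for *Lgals3*, −0.032 to 0.031 for *Cst7*, −0.013 to 0.096 for *Igf1* and −0.017 to 0.053 for *Fabp5*. The difference of responses ranged over −0.0062 to 0.12 for *Cst7*, −0.030 to 0.11 for *Fabp5* and −0.12 to 0.0035 for *Igf1*.

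Over all genes, with DESeq2 the calls numbered 845 in the WT response (399 in edgeR), 46 in the Trem2-/- response (20) and 928 in the difference (518), with no low-count filter 607 and 61 in the responses, with trends removed 1023, 34 and 1083, and with only the libraries compared 144 in the WT response. With a library left out they ranged over 146 to 526, 10 to 18 and 201 to 661. In the WT response the count moved by over 1.5 times without WT non-foamy replicate 1 (188) or 4 (220) and WT foamy replicate 1 (243) or 2 (146), in the Trem2-/- response without Trem2-/- non-foamy replicate 1 (10) or 2 (12) and Trem2-/- foamy replicate 1 (13) or 3 (11), and in the difference without WT non-foamy replicate 1 (343), WT foamy replicate 2 (238), Trem2-/- non-foamy replicates 1 to 3 (201, 227 and 273) and Trem2-/- foamy replicate 1 (276) or 3 (336). Mean levels moved by more than 1 SD under total counts alone for 12 of 40 combinations of member and group, and for none under RLE factors.

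The labels do not say whether samples with the same replicate number were paired. Deviations of same-numbered libraries correlated between −0.105 and 0.143 over 21 pairs, with 1 pair above 0.1. Those of differently numbered libraries of different groups correlated between −0.23 and 0.17. Low correlations cannot show that samples were unpaired, since each library also had trends of its own. With the replicate block 294 genes were called in the difference of responses in place of 518, the members called were 1 higher in the WT response, 6 higher and 1 lower without cholesterol, 8 higher and 1 lower with it and 1 lower in the difference, and no call of a member changed.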

Other observations

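Values in parentheses after a gene are log2 fold changes ± standard error. Of 25 genes whose products act with those of the markers, 21 were tested, and in Trem2-/- against WT cells 4 were higher and 7 lower without cholesterol (median log2 fold change −0.031), beside 21.0% and 22.6% of all tested genes. With cholesterol 3 were higher and 3 lower (median −0.012), beside 14.3% and 15.9%. Apart from the larger count of lower genes without cholesterol, these shares were near those of all genes. *Ctsh* (1.19 ± 0.082), a cathepsin, *Syk* (0.48 ± 0.083), the kinase downstream of dectin-1, and *Itgb2* (0.42 ± 0.078), the integrin chain that pairs with Itgax, were higher without cholesterol. *Lgals3bp* (−2.28 ± 0.21), a secreted ligand of galectin-3, and *Igsf8* (−0.40 ± 0.11), a partner of Cd9, were lower. *Ptgfrn*, another partner of Cd9, had 8 to 28 reads in each WT non-foamy library and 14 to 38 in each WT foamy library, and 0 reads in all 7 Trem2-/- libraries. Of this list *Ctsh* was the gene called in the WT response (0.33 ± 0.077), beside 1.66% of all tested genes called higher. *Ctsh* was also the gene called in the difference of responses (−0.43 ± 0.11), beside 1.64% called lower. In the Trem2-/- response 0 genes of this list were called in edgeR or DESeq2 and 1 had an unadjusted p under 0.05.

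Of 14 genes of resting microglia, 12 were tested. Without cholesterol 7 were higher and 3 lower in Trem2-/- cells (median 0.30), beside 21.0% and 22.6% of all tested genes, and the share that was lower was near that background. With it 5 were higher and 4 lower (median 0.077), beside 14.3% and 15.9%. *Mertk* (1.23 ± 0.087), a receptor for apoptotic cells, and *Gpr34* (0.70 ± 0.18) were among those higher without cholesterol. *Cx3cr1* (−2.35 ± 0.42), *P2ry12* (−1.51 ± 0.30) and *P2ry13* (−1.13 ± 0.26) were lower, at levels of at most 1.96, 2.46 and 3.39 CPM in any library. *Mertk* was also the gene of this list that rose with cholesterol in WT cells (0.57 ± 0.082), beside 1.66% of all tested genes called higher. It was the gene of this list whose responses differed between genotypes (−0.73 ± 0.12), beside 1.64% called lower. In the Trem2-/- response 0 were called in edgeR or DESeq2 and 0 had an unadjusted p under 0.05.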
